A study of Mus musculus with 6 samples.

Results

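The semaphorins, plexins and neuropilins were followed in cortex RNA from newborn Tle4-/- mice and from their wild-type littermates. Tle4 encodes a transcriptional co-repressor of the Groucho family. Members were all rows of the deposited gene table whose symbol is a mouse semaphorin of classes 3 to 7, a plexin or a neuropilin, which gave 31 of 23621 genes: 20 semaphorins, 9 plexins and 2 neuropilins. The samples were 3 Tle4-/- mutants and 3 wild types, all cortex at postnatal day 0, from a background mixed from the C57BL/6J, 129S6 and CD1 strains. The mutation is carried by the whole animal, no Cre or other transgene is named, and the labels do not say which part of Tle4 is missing, whether animals were pooled or which littermates share a litter. The p-values therefore measure only the variation among these samples, which may be technical.

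Semaphorins are guidance cues for growing axons and migrating cells. Class 3 members are secreted, classes 4 to 6 span the membrane, and class 7 is tethered by a lipid anchor. Plexins are the main receptors: their cytoplasmic part acts on small GTPases and so on the cytoskeleton of the growth cone. Most class 3 cues cannot hold a plexin of class A by themselves and need a neuropilin as the ligand-binding partner, while classes 4 to 7 bind plexins directly. In the newborn cortex these genes are known from axon repulsion and attraction, the crossing of callosal axons, dendrite orientation and early synapse formation.

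The libraries held 18617408 to 21632607 counts, of which 0.414% to 0.460% fell on the 31 genes. Tle4 stood at 69.3, 86.8 and 86.8 CPM (counts scaled to library size with TMM factors) in the mutants and 198, 142 and 166 CPM in the wild types, so each mutant library lay below each wild-type library. The fitted change was -1.06 on the log2 scale, with an SE of 0.14 and an adjusted p of 0.0377 by edgeR. Tle4 RNA was thus lower in the mutants but not absent, at 1481 to 1664 counts per library. The 7 markers fixed for cortical projection neurons, Tbr1 and Neurod6 among them, summed to 2190 to 2659 CPM in the mutants and 2348 to 2744 CPM in the wild types. Sex and genotype cannot be told apart here: Xist, made in females, had 66194 to 79080 counts in the mutants and 11 to 37 in the wild types, and the Y-linked Ddx3y had 0 to 2 counts in the mutants and 1463, 1891 and 2 in wild-type replicates 1, 2 and 3. The 10 meningeal markers summed to 288 to 577 CPM in the mutants, against 36.5 CPM in wild-type replicate 1 and up to 744 CPM in the other wild types. The 12 striatal markers summed to 149 to 198 CPM in the mutants and 198 to 289 CPM in the wild types, with 11 of 12 log2 fold changes below 0. The 9 interneuron markers summed to 479 to 554 CPM in the mutants and 549 to 592 CPM in the wild types. The 5 choroid plexus markers summed to 0.748, 2.15 and 98.1 CPM in the mutants and 1.17 to 2.36 CPM in the wild types. Among them Ttr had 1789 counts in mutant replicate 3 and at most 5 in any other library.

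All 31 genes had enough counts to be tested, and none passed the threshold in either direction (edgeR, Benjamini-Hochberg adjusted p of 0.05 over 16274 genes). The background is 0.111% of all genes tested, 18 genes, with 0.0492% called higher and 0.0614% called lower in the mutant. The smallest adjusted p among the 31 was 0.9996, and no member passed by DESeq2 (58 genes called, 0.357%) or by limma-voom. At an unadjusted p under 0.05 there were 2 members, Plxnd1 and Sema5a, both lower in the mutant, where 3.45% of all genes reached that level, 1.73% lower and 1.71% higher. In the authors' deposited table no member had an adjusted p under 0.05 or an unadjusted one under 0.05, the lowest being 0.0776 for Plxnd1, against 68 genes, 0.288% of the table, past the adjusted threshold.

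The members' log2 fold changes ran between -0.58 and 0.20, with 21 of 31 below 0 and a median of -0.06, while 51.3% of all genes tested lay below 0 with a median of -0.01. The size of that lean depended on the libraries used. Without wild-type replicate 1 it was 16 of 31 with a median of -0.0068, and without wild-type replicate 3 it was 16 of 31 with a median of -0.018. Without mutant replicate 1 it was 20 of 31 with a median of -0.051. With 1 library at a time left out the median stayed below 0, from -0.088 to -0.0068. The intervals describe the difference between these groups of libraries, in which sex and genotype cannot be told apart. For 29 of the 31 genes the 95% interval of the fold change lay within 2-fold in both directions, which held for 78.9% of all genes tested. Among members with a mean of at least 10 CPM it held for 25 of 26, and among all such genes for 95.8%. The exceptions were Nrp2, whose libraries were split, and Plxnb3, which was near the limit of detection.

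**Figure D1:**
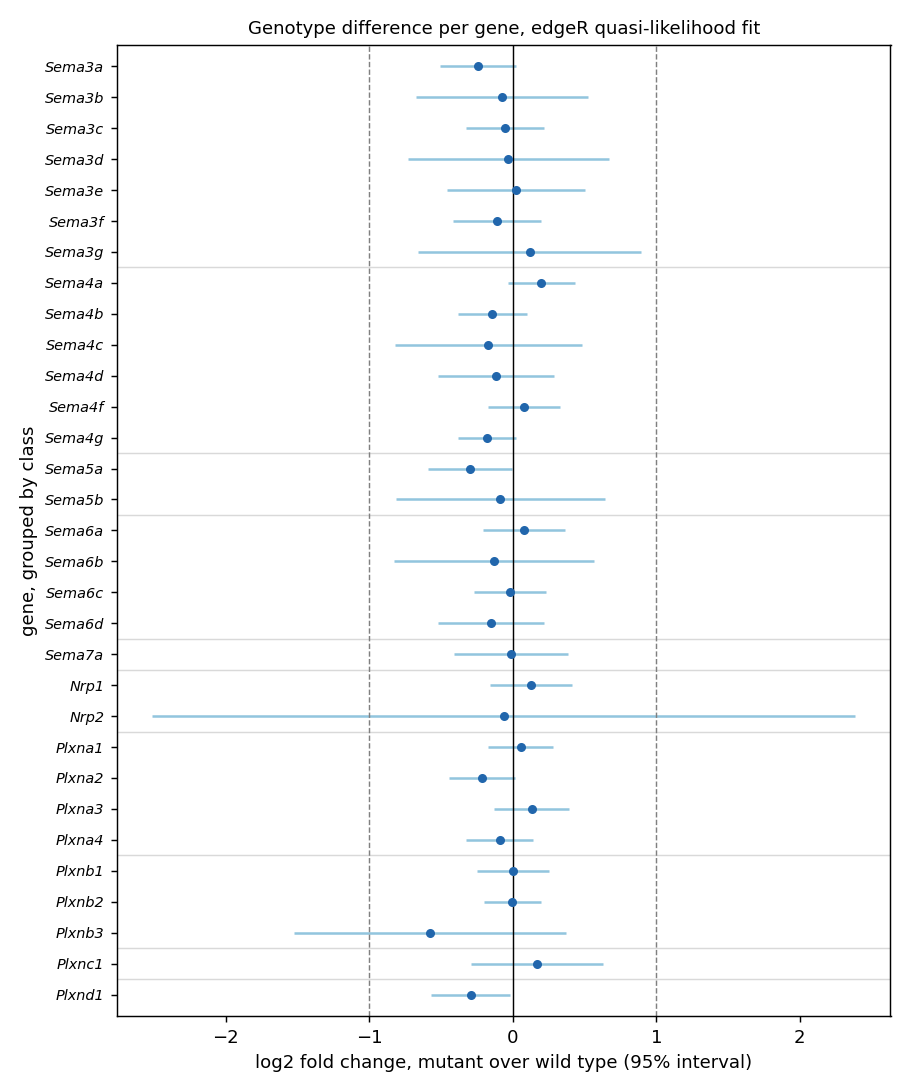
Log2 fold change of each gene, mutant over wild type (horizontal axis), with its 95% interval from the edgeR fit on 3 libraries per genotype; genes run down the page by class, and dashed lines mark a 2-fold change. Every point lies between -0.58 and 0.20, and only the intervals of Nrp2 and Plxnb3 reach past a dashed line.

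The secreted class 3 semaphorins were carried by 3 genes. Levels between genes are compared here in the authors' FPKM, which divides by gene length. Sema3f, the ligand of Nrp2 that repels axons and limits dendritic spines, averaged 6.68 ± 0.822 FPKM in the mutant and 7.29 ± 1.02 FPKM in the wild type (SD, n = 3 each, as for all such pairs). Sema3c, which attracts callosal axons through Nrp1, averaged 5.24 ± 0.482 FPKM in the mutant and 5.50 ± 0.606 FPKM in the wild type. Sema3a, which repels axons and orients the apical dendrites of cortical pyramidal neurons, averaged 2.95 ± 0.342 and 3.52 ± 0.0754 FPKM in mutant and wild type. Over the 6 libraries these 3 genes made up 39.4%, 30.3% and 18.2% of the class total in FPKM, and the other 4 members reached at most 1.04 FPKM in any library.

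Among these, Sema3a had the smallest p of the class. It stood at 46.6, 50.4 and 58.7 CPM in the mutants and 64.1, 58.5 and 61.4 CPM in the wild types. The genotypes met at one point, mutant replicate 3 lying just above wild-type replicate 2. Its log2 fold change was -0.24 (SE 0.12, 95% interval -0.50 to 0.02, edgeR unadjusted p = 0.0694, adjusted p = 0.9996). Sema3f showed no such order, with 64.2, 57.8 and 50.3 CPM in the mutants and 53.4, 63.7 and 68.9 CPM in the wild types (log2 fold change -0.11, SE 0.14, between -0.21 and -0.02 with 1 library left out).

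The scarce members Sema3b, Sema3d, Sema3e and Sema3g had mean log2 fold changes between -0.08 and 0.12, with wide errors (SE 0.21 to 0.35). Sema3e, the direct ligand of Plxnd1 and a transcript known from deep cortical layers, averaged 9.45 ± 2.40 CPM in the mutant and 9.32 ± 0.775 CPM in the wild type. Sema3d was even in the mutants, at 5.80, 5.97 and 6.21 CPM, and uneven in the wild types, at 3.77, 9.29 and 5.27 CPM. Its lowest and highest values fell in wild-type replicates 1 and 2, which also held the lowest and highest meningeal marker sums. Sema3g, known from vessel walls, had 2.76, 3.40 and 1.98 CPM in the mutants and 1.73, 3.55 and 2.20 CPM in the wild types, which had the same order as for Sema3d. The 8 endothelial markers summed to 143 to 176 CPM in the mutants. In wild-type replicates 1, 2 and 3 they summed to 123, 202 and 126 CPM, with replicates 1 and 3 nearly level. The part of meninges and vessels in these 2 genes was not tested, and Sema3d and Sema3g were singled out after their values were seen.

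**Figure D2:**
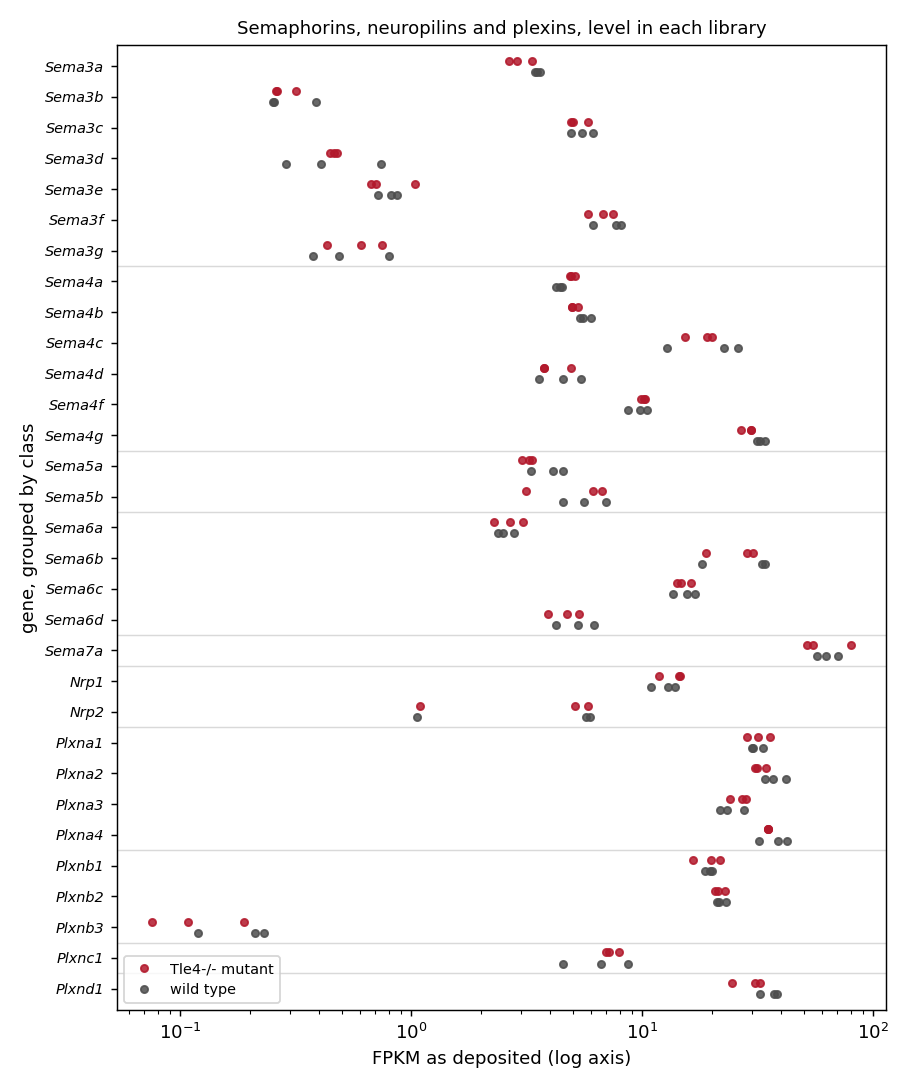
Deposited FPKM (log axis) of each gene in each library; for each gene the 3 Tle4-/- mutant libraries stand above the 3 wild-type libraries, and lines separate the classes. Sema7a is the highest, between 51.7 and 80.4 FPKM, Plxnb3 the lowest, and Nrp2 splits into 4 libraries near 5 to 6 FPKM and 2 near 1 FPKM, one of each genotype.

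The membrane-spanning class 4 held 6 genes and summed to 71.1 ± 4.57 FPKM in the mutant and 77.4 ± 8.73 FPKM in the wild type. Sema4g, a ligand of Plxnb2, led the class with 41.2% of its FPKM over the 6 libraries. It stood at 262, 289 and 293 CPM in the mutants and 341, 306 and 307 CPM in the wild types, and all 3 mutants lay below all 3 wild types. The log2 fold change was -0.18 (SE 0.09, 95% interval -0.38 to 0.02, edgeR unadjusted p = 0.0782). Sema4a, first known as an immune semaphorin, was ordered the other way, with 45.8, 46.1 and 48.4 CPM in the mutants and 42.8, 38.4 and 41.0 CPM in the wild types. Its log2 fold change of 0.20 (SE 0.10, edgeR unadjusted p = 0.0883) was the highest of the 31 genes.

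Sema4b, which can bind the postsynaptic scaffold PSD-95, had 41.4, 44.0 and 41.5 CPM in the mutants and 46.7, 43.4 and 49.9 CPM in the wild types. These overlapped, because wild-type replicate 2 lay within the mutants. The log2 fold change was -0.14 (SE 0.11). Sema4d, the ligand of Plxnb1 that promotes inhibitory synapses, averaged 45.6 ± 7.34 CPM in the mutant and 49.5 ± 10.9 CPM in the wild type. Sema4f was the most even of the class in the mutants, at 61.3, 61.9 and 59.8 CPM, against 64.3, 56.7 and 52.1 CPM in the wild types.

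Sema4c, also a ligand of Plxnb2, varied more among the wild types than between genotypes. It stood at 117, 152 and 146 CPM in the mutants and 201, 94.3 and 171 CPM in the wild types, a gene shown library by library because of that spread. Its highest wild-type value was 2.14 times its lowest. The log2 fold change of -0.17 (SE 0.27) was -0.43 without wild-type replicate 2 (edgeR unadjusted p = 0.0163, adjusted p = 0.884) and 0.06 without wild-type replicate 1. A processed transcript on the other strand, D430040D24Rik, overlaps Sema4c with 81 to 143 counts per library, against 2101 to 3956 for Sema4c.

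Class 5 semaphorins carry thrombospondin repeats beside the semaphorin domain, and both members are known to repel axons. Sema5a had 32.9, 35.2 and 36.3 CPM in the mutants and 36.4, 47.5 and 44.4 CPM in the wild types, with mutant replicate 3 and wild-type replicate 1 almost level. The genotypes did not overlap in these values, but they overlapped in FPKM, at 3.32 in mutant replicate 3 and 3.30 in wild-type replicate 1. The log2 fold change was -0.30 (SE 0.13, 95% interval -0.59 to -0.01, edgeR unadjusted p = 0.0463, adjusted p = 0.9996). It was -0.40 without wild-type replicate 1 and -0.21 without replicate 2. Sema5b stood at 31.7, 61.7 and 68.5 CPM in the mutants and 71.4, 54.5 and 45.7 CPM in the wild types. Here mutant replicate 1 and wild-type replicate 3 were the lowest of their genotypes, and the log2 fold change was -0.09 (SE 0.30).

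Of class 6, whose members can act as ligands of class A plexins and also as receptors, Sema6b and Sema6c were the most abundant, with 54.3% and 30.5% of the class FPKM. Sema6b, a ligand of Plxna4, had 75.9, 120 and 114 CPM in the mutants and 134, 69.8 and 135 CPM in the wild types. It fell into high and low libraries within each genotype, with mutant replicate 1 and wild-type replicate 2 low, the same as for Sema4c. Those were the 2 libraries with the most counts, 21486851 and 21632607. Sema6b had a log2 fold change of -0.13 (SE 0.29), and leaving out 1 library moved it to -0.38 (wild-type replicate 2 out) or 0.05 (mutant replicate 1 out).

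Sema6d, a ligand of Plxna1, had 76.0, 91.4 and 104 CPM in the mutants and 121, 98.5 and 81.5 CPM in the wild types. As for Sema5b, mutant replicate 1 and wild-type replicate 3 were the lowest. Sema6c averaged 205 ± 13.9 CPM in the mutant and 209 ± 26.4 CPM in the wild type. Sema6a, a ligand of Plxna2 and Plxna4, averaged 58.5 ± 8.16 CPM in the mutant and 55.4 ± 3.53 CPM in the wild type, and both genes had log2 fold changes within 0.08 of 0.

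Sema7a, the lipid-anchored semaphorin that promotes axon growth through beta-1 integrin and binds Plxnc1, was the most abundant semaphorin in FPKM. It stood at 80.4, 54.6 and 51.7 FPKM in the mutants and 62.2, 57.0 and 70.4 FPKM in the wild types. The mutants held both the highest and the lowest library, and the log2 fold change was -0.01 (SE 0.17, 95% interval -0.41 to 0.39). In the order of mean FPKM it was followed by Sema4g, Sema6b, Sema4c, Sema6c and Sema4f, at 30.6, 27.1, 19.3, 15.2 and 9.91 FPKM over the 6 libraries. The range of Sema7a stood clear of that of Sema4g. Sema4g overlapped with Sema6b, Sema6b with Sema4c and Sema4c with Sema6c, while Sema4f stood apart from its neighbours on both sides.

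The 2 neuropilins differed in how even they were across libraries. Nrp1, the co-receptor for Sema3a and for the vascular growth factor Vegfa, had 85.5, 69.9 and 87.3 CPM in the mutants and 66.0, 74.2 and 82.2 CPM in the wild types. The genotypes overlapped, with a log2 fold change of 0.13 (SE 0.13, 95% interval -0.16 to 0.41). Leaving out wild-type replicate 1 gave 0.05, and leaving out mutant replicate 2 gave 0.22. Nrp2, the co-receptor for Sema3f, had 15.2, 71.5 and 82.1 CPM in the mutants and 81.2, 80.2 and 14.7 CPM in the wild types. Mutant replicate 1 and wild-type replicate 3 were low, and the other 4 libraries stood close together whatever their genotype, the lowest of them being 4.69 times the higher of the 2 low ones.

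That split was wide for a gene of this level. Within the mutants the highest Nrp2 library was 5.38 times the lowest, and within the wild types 5.53 times, against medians of 1.19 and 1.23 over 10297 genes with a mean of at least 10 CPM. In 4 of those genes, Nrp2 included, the highest library was at least 5.38 times the lowest in both genotypes. In the whole table Nrp2 was the only 1 of 23621 rows with mutant replicate 1 and wild-type replicate 3 at least 3-fold below the other 4 libraries, those being at 5 CPM or more, a search made after the values were seen. The raw counts were 326, 1367 and 1574 in the mutants and 1594, 1787 and 273 in the wild types, so even the low libraries lay far above counting error.

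The gene (ENSMUSG00000025969) lies on chromosome 1 from 62703285 to 62818695, plus strand, on GRCm38, and its row is 1 value for all transcripts. Gm37121, an unclassified transcript inside the gene on the same strand, had 6, 24 and 10 counts in the mutants and 9, 29 and 1 in the wild types, at most 29 in a library. The log2 fold change of Nrp2 was -0.06, with a 95% interval from -2.51 to 2.39, so these libraries bound it poorly. Leaving out mutant replicate 1 gave 0.39, and leaving out wild-type replicate 3 gave -0.52. With both of those left out, an alternative added after seeing the data, it was -0.07 (edgeR unadjusted p = 0.581).

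**Figure D3:**
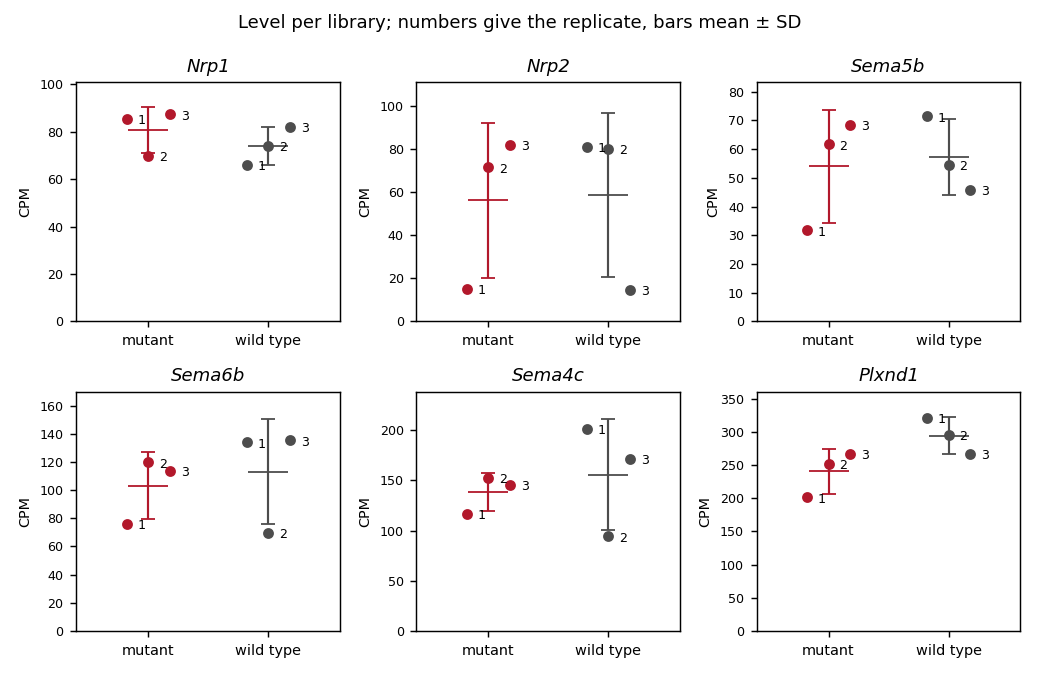
CPM in each library (points numbered by replicate) with mean and SD as bars, mutants left and wild types right, for Nrp1, Nrp2, Sema5b, Sema6b, Sema4c and Plxnd1; each vertical axis starts at 0. Nrp2 is at 15.2 CPM in mutant replicate 1 and 14.7 CPM in wild-type replicate 3, against 71.5 to 82.1 CPM in the other 4 libraries.

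Class A plexins, which pair with neuropilins for class 3 cues and bind class 6 cues directly, made up most of the plexin RNA. They summed to 126 ± 5.95 FPKM in the mutant and 131 ± 5.03 FPKM in the wild type, of 203 ± 7.18 and 215 ± 1.58 FPKM for all 9 plexins in mutant and wild type. Plxna4, which transmits Sema3a and Sema6a signals, was nearly constant in the mutants at 503, 504 and 509 CPM, against 468, 539 and 608 CPM in the wild types. The wild types enclosed the mutants, and the log2 fold change was -0.09 (SE 0.10).

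Plxna2, a receptor of Sema6a, had 624, 633 and 701 CPM in the mutants and 757, 669 and 845 CPM in the wild types. The genotypes overlapped between mutant replicate 3 and wild-type replicate 2 alone. The log2 fold change was -0.21 (SE 0.10, 95% interval -0.45 to 0.02, edgeR unadjusted p = 0.0671), and it was -0.13 without wild-type replicate 3 and -0.29 without replicate 2. Plxna1, a receptor of Sema6d, averaged 366 ± 42.7 CPM in the mutant and 352 ± 13.1 CPM in the wild type.

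Plxna3, a partner of Nrp2 in Sema3f signalling, is X-linked, and the part of sex in its values was not tested. It had 346, 296 and 337 CPM in the mutants and 346, 279 and 268 CPM in the wild types. The highest library of each genotype stood at the same level, and the ranges overlapped. Its log2 fold change was 0.13 (SE 0.12, 95% interval -0.13 to 0.39). It was 0.25 without wild-type replicate 1 (edgeR unadjusted p = 0.0347) and 0.06 without wild-type replicate 3. Of 568 X-linked genes tested, 1 was called, 0.176%, and it was Xist, the gene used above to read sex.

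In class B, Plxnb1 and Plxnb2, receptors of class 4 semaphorins, were level between genotypes. Plxnb2 stood at 207, 193 and 189 CPM in the mutants and 198, 185 and 208 CPM in the wild types, the narrowest spread of the family, with a 95% interval of the fold change from 0.869 to 1.15. Plxnb1 averaged 216 ± 29.4 CPM in the mutant and 215 ± 9.81 CPM in the wild type (95% interval of the fold change 0.843 to 1.19). Plxnb3, also X-linked, is known from oligodendrocytes, which have hardly formed at birth. It had 21, 13 and 33 counts in the mutants and 38, 45 and 20 in the wild types, with 1.13 ± 0.535 and 1.68 ± 0.523 CPM in mutant and wild type. Its log2 fold change of -0.58 (SE 0.42, edgeR unadjusted p = 0.203) rests on these few counts. It was -1.01 without mutant replicate 3 and -0.32 without mutant replicate 2. The 6 oligodendrocyte-lineage markers summed to 309 to 377 CPM in the mutants and 274 to 313 CPM in the wild types, and their part in the Plxnb3 values was not tested.

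Plxnc1, the receptor of Sema7a, had 59.7, 57.6 and 66.4 CPM in the mutants and 56.1, 69.5 and 37.6 CPM in the wild types. Wild-type replicate 3 was low, and the log2 fold change of 0.17 (SE 0.20) was -0.04 without that library and 0.39 without wild-type replicate 2. Plxnd1, the receptor of Sema3e found in callosal neurons and in vessels, had the smallest p of the 31 genes. It stood at 202, 252 and 267 CPM in the mutants and 322, 296 and 267 CPM in the wild types, where mutant replicate 3 and wild-type replicate 3 were level. Plxnd1 had a log2 fold change of -0.29 (SE 0.12, 95% interval -0.57 to -0.02, edgeR unadjusted p = 0.0389, adjusted p = 0.9996), which ran from -0.38 to -0.18 when 1 library at a time was left out. The striatal marker sum was also lower in the mutants, at 198, 177 and 149 CPM against 245, 198 and 289 CPM. Within the mutants it fell from replicate 1 to replicate 3 while Plxnd1 rose. Wild-type replicate 3 had the highest striatal sum and the lowest wild-type Plxnd1. The part of striatal tissue in the Plxnd1 values was not tested. In bulk RNA fewer cells of a type and less RNA per cell cannot be told apart, here as for the other genes.

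In the order of mean FPKM the plexins ran Plxna4, Plxna2, Plxnd1, Plxna1, Plxna3, Plxnb2, Plxnb1, Plxnc1 and Plxnb3, at 36.4, 34.9, 32.5, 31.5, 25.3, 21.8, 19.4, 6.99 and 0.156 FPKM over the 6 libraries. Plxna4 to Plxna1 overlapped from each to the next, as did Plxna3 to Plxnb1, while Plxna1 stood above Plxna3, and Plxnc1 and Plxnb3 stood apart. The order depends on the length used. Counts and FPKM together imply a length for each gene, which exceeded the longest transcript of the GENCODE M21 annotation by over 5% for 28 of the 31 genes and reached 3.18 times it for Sema6a. Per kilobase of the longest transcript, Sema4g ranked above Sema7a among semaphorins and Plxna2 above Plxna3 and Plxna4 among plexins, while Plxnc1 and Plxnb3 stayed last. Per kilobase of all exons merged, Sema7a stayed first among semaphorins, followed by Sema6c and Sema4g. By that length the plexins began with Plxna2, Plxna1, Plxna3 and Plxna4, and Plxnc1 and Plxnb3 were again last. Within class 6, Sema6c stood above Sema6b by both lengths, the reverse of their FPKM order. The values were 40.6 against 28.9 CPM per kilobase of the longest transcript and 34.9 against 27.2 per kilobase of merged exons.

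**Figure D4:**
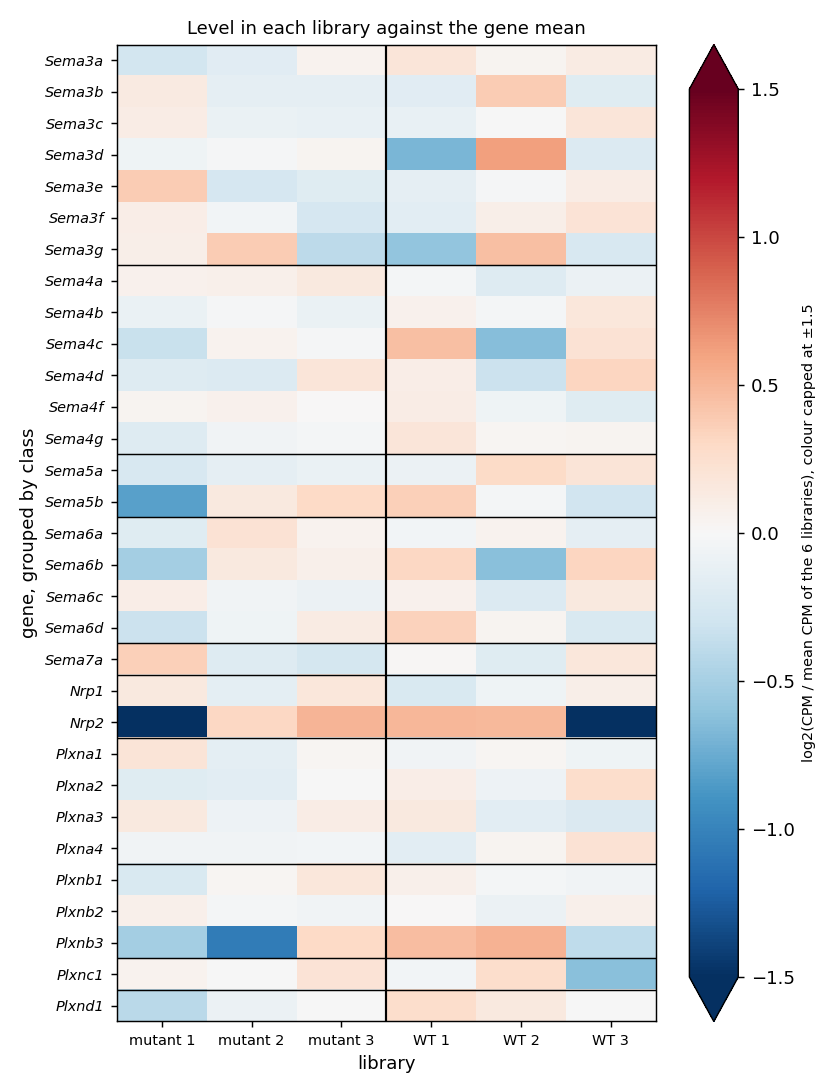
Each cell is the log2 ratio of a gene's CPM in 1 library to its mean CPM over the 6 libraries, with mutants left and wild types (WT) right of the vertical line and classes separated by horizontal lines; colours are capped at a ratio of ±1.5. Nrp2 is the darkest row, low in mutant replicate 1 and wild-type replicate 3, and Sema3d and Sema3g are low in wild-type replicate 1 and high in wild-type replicate 2.

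Few members separated the genotypes completely. Mutant and wild-type libraries did not overlap for Sema4g and Sema5a, lower in the mutant, and for Sema4a, higher in the mutant. That is 3 of 31, beside a background of 7.93% of all genes tested, with 3.75% lower and 4.18% higher. Sema5a no longer separated the genotypes when genes were filtered at a mean of 1 CPM or scaled with DESeq2 size factors, and with those size factors Plxnd1 did. The summed FPKM of all 9 plexins was 201, 198 and 211 in the mutants and 213, 216 and 215 in the wild types, below it in each mutant by a narrow margin, with a ratio of the means of 0.946. In summed TMM-scaled CPM, which weights long genes more, the plexins overlapped, with 2537, 2481 and 2680 in the mutants and 2722, 2617 and 2786 in the wild types. The 20 semaphorins overlapped in FPKM, at 212, 207 and 202 in the mutants and 231, 194 and 235 in the wild types.

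The other genes of the pathway were described through lists drawn up for the purpose. Of 11 co-receptors and further receptors, none passed the threshold, 6 lay below 0, and the median log2 fold change was -0.01, beside -0.01 for all genes tested. Nrcam, an adhesion partner of neuropilins, averaged 336 ± 17.4 CPM in the mutant and 266 ± 52.7 CPM in the wild type (log2 fold change 0.33, edgeR unadjusted p = 0.0331). Chl1, a related adhesion molecule, gave 0.27, Ptk7 -0.17, and the scarce Cd72, a receptor of Sema4d on immune cells, -0.99 at 0.604 and 1.22 CPM in mutant and wild type.

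Of 5 growth factors that bind or compete at neuropilins none passed, with a median of 0.04. Vegfa averaged 69.9 ± 3.82 CPM in the mutant and 60.0 ± 9.45 CPM in the wild type (log2 fold change 0.22, SE 0.13). Vegfb gave -0.11, Pgf -0.21 and Vegfd 0.14. Of 37 intracellular transducers, the GTPases, kinases and collapsin response mediators that carry plexin signals, none passed either, 20 lay below 0, and the median was -0.01. Dpysl2, the collapsin response mediator first tied to Sema3a, averaged 273 ± 36.0 CPM in the mutant and 239 ± 16.2 CPM in the wild type (log2 fold change 0.19, SE 0.11), and Dpysl3, its relative, gave 0.15. Sh3bp1, a GTPase-activating protein that acts with Plxnd1, gave -0.24 and Tiam1, an activator of Rac1, -0.16.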

How the data were processed

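Cortex RNA of 3 Tle4-/- and 3 wild-type newborn mice was sequenced. Per the submitters' processing notes, the tools were edgeR, StringTie and HISAT2 (version 2.0.4), and the builds mm10 and GRCm38.p4. Which program counted reads, with which annotation and strand setting, is not given in the sources used here, so reads of overlapping or antisense rows may be shared. The authors deposited a whole-number count, an FPKM value and their own p-value and adjusted p-value per gene. FPKM was used to compare levels between genes and to describe summed levels of a class in each genotype, with no test. A deposited column of log2 ratios holds cells that are not numbers and was left out. In 25 rows a symbol that a spreadsheet had turned into a date was restored. Coordinates are those of the deposited table.

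The genotype test used R 4.3.3 and edgeR 4.0.16: filterByExpr, TMM, a robust quasi-likelihood fit over all 6 libraries, a 2-sided test of mutant over wild type, and Benjamini-Hochberg adjustment over all genes tested, at 0.05. Each SE was derived from the fold change and its F statistic, and 95% intervals use the fit's degrees of freedom. The fit was tested on simulated data with 200 changed genes. It recovered 77% of the 2-fold and 99% of the 4-fold changes, with 7 false calls among 183. Changes under 2-fold, the size of the members' fold changes, were not simulated. Each simulated gene took the spread typical of its level, so genes as uneven as Nrp2 were not covered. Alternatives used DESeq2 1.42.0 and limma 3.58.1. The members and all gene lists were chosen with earlier results of these data known. Library values are given for the 12 members with the smallest p and the most abundant member of each class by FPKM, and up to 4 genes with the smallest p are named per pathway list. Library values of Nrp2, Sema3d, Sema3g, Sema4c and Sema4f were added after seeing the data.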

Additional observations from a re-analysis of the deposited data

How the results depend on the processing

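No member and no pathway gene passed the threshold under any of the 15 alternatives. Over all genes the 18 called became 58 by the DESeq2 Wald test, 9 with a replicate block and 8 to 19 when 1 library at a time was left out, the lowest without mutant replicate 3. The replicate numbers do not pair the libraries: same-numbered deviations correlated at -0.06, 0.10 and -0.02 for replicates 1, 2 and 3. Of the same-numbered libraries only those numbered 2 matched each other best. Mutant replicate 1 and wild-type replicate 3, the libraries low in Nrp2, were each other's best match. So were mutant replicate 3 and wild-type replicate 1. Members whose genotypes did not overlap numbered 3 of 31, where 7.93% of all genes did not overlap. They numbered 2 (7.73% of all genes) with a filter at a mean of 1 CPM. Fewer libraries make overlap rarer by construction: with 1 library left out they numbered 5 to 12, where the share of all genes was 14.1% to 21.2%, and the 12 came without wild-type replicate 2 (21.2%). Without both libraries low in Nrp2 they numbered 8 (24.9%).

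Of 463 member log2 fold changes under alternatives, 401 kept their sign and 62 reversed. Of the members, 12 kept their sign throughout and 19 reversed at least once, the largest main value among these being 0.17 in size. The cause was not tested. Plxnb1 was -0.00020 with DESeq2 size factors and -0.00024 by the DESeq2 Wald test. By limma-voom Plxnb1 was -0.0060, Plxnb2 0.00018 and Sema3d 0.052. With every gene of at least 1 count tested Plxnb2 was 0.00074. With the replicate block Plxnb1 was -0.0040, Sema3d 0.064 and Sema3e -0.0039. With a meninges score as a covariate Plxnb2 was 0.014, Sema3g -0.071, Sema4c 0.085, Sema5b 0.020, Sema6b 0.046, Sema6c 0.032 and Sema7a 0.035. Without both libraries low in Nrp2, an alternative chosen after seeing the data, Plxna1 was -0.048, Plxna4 0.012, Plxnb2 0.0018, Plxnc1 -0.015, Sema3e -0.14, Sema4c 0.018, Sema4d 0.11, Sema5b 0.052, Sema6b 0.21 and Sema6c 0.0022.

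With 1 library at a time left out, the members that reversed ranged as follows: Nrp2 -0.52 to 0.39, Plxna1 -0.029 to 0.14, Plxna4 -0.18 to 0.0057, Plxnb1 -0.088 to 0.11, Plxnb2 -0.041 to 0.039, Plxnc1 -0.036 to 0.39, Sema3b -0.17 to 0.14, Sema3c -0.13 to 0.030, Sema3d -0.28 to 0.41, Sema3e -0.20 to 0.14, Sema3g -0.088 to 0.47, Sema4c -0.43 to 0.059, Sema4d -0.27 to 0.039, Sema5b -0.30 to 0.19, Sema6a -0.022 to 0.18, Sema6b -0.38 to 0.053, Sema6c -0.12 to 0.055, Sema6d -0.28 to 0.0064 and Sema7a -0.23 to 0.10. Those that kept their sign ranged as follows: Nrp1 0.049 to 0.22, Plxna2 -0.29 to -0.13, Plxna3 0.062 to 0.25, Plxnb3 -1.01 to -0.32, Plxnd1 -0.38 to -0.18, Sema3a -0.34 to -0.17, Sema3f -0.21 to -0.024, Sema4a 0.16 to 0.24, Sema4b -0.19 to -0.090, Sema4f 0.013 to 0.16, Sema4g -0.21 to -0.13 and Sema5a -0.40 to -0.21. The median over the members ran from -0.088 to -0.0068, and it was -0.0078 with the meninges score as a covariate. Depth limits Plxnb3 most, at 13 to 45 counts per library.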
